A study of Mus musculus with 8 samples.

Results

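Activating transcription factor 4 (ATF4) and its best known targets in the liver were followed through 10 genes, *Asns*, *Ddit3*, *Atf3*, *Atf4*, *Atf5*, *Trib3*, *Chac1*, *Psat1*, *Sesn2* and *Fgf21*, out of 22911 genes with a symbol on the array. These genes were chosen by name, with the difference between the genotypes in these samples already known, so their values are a description and carry no test. They were read by 14 of the 56605 probes, 1 probe for 6 of the genes and 2 probes for 4 of them. Liver RNA came from untreated male C57BL/6 mice at 10 weeks of age, 4 *Agpat3* WT and 4 *Agpat3* KO, and each mouse had 1 one-color Agilent array. The KO is a global deletion, so the gene is missing from every cell of the animal and not from hepatocytes alone, and AGPAT3 is an acyltransferase that puts DHA into membrane phospholipids. All 8 arrays lay on 1 slide, the WT samples in row 1 and the KO samples in row 2, so row and genotype cannot be told apart.

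ATF4 is made when stress kinases phosphorylate the translation factor eIF2α, which slows most protein synthesis while the *Atf4* mRNA is translated more. The kinase GCN2 (*Eif2ak4*) senses uncharged tRNA when amino acids run short, and PERK (*Eif2ak3*) senses unfolded protein in the endoplasmic reticulum. ATF4 then binds composite C/EBP-ATF sites and turns on genes for amino acid synthesis and uptake, tRNA charging and stress signaling. Because ATF4 is controlled in large part by translation, the level of its mRNA does not report its activity.

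The letters TGATGNAA, a core of the C/EBP-ATF site, were searched on both strands in windows from 250 bases before to 50 bases after each gene start, taken from RefSeq (GRCm38.p6). They were present in the windows of 5 of the 10 genes, against 4.51% of 27025 genes with a window. The match of *Asns* lay 23 bases before the start, in the amino acid response element for which this promoter is known. The 250 bases before the starts of the 2 genes called lower in KO liver are shown because the array results turn on them, with the match in capitals. No match was found in the *Ddit3* window. Sequence further upstream was not searched, so this does not show that the *Ddit3* promoter lacks such a site. *Asns* lies at chr6:7693210-7693459 (minus strand) and *Ddit3* at chr10:127290543-127290792 (plus strand), each printed 5′ to 3′ along its gene.
Asns: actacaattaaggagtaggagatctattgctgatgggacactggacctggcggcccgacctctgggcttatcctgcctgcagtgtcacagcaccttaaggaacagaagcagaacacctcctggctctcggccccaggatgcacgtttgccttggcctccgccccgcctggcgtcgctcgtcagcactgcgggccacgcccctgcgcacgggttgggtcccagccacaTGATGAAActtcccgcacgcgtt
Ddit3: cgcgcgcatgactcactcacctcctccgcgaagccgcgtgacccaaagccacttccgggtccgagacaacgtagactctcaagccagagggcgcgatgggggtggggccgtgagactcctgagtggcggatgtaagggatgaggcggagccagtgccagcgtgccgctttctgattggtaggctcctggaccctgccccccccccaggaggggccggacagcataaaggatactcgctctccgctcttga
The matches of *Atf3* (110 bases before the start), *Chac1* (193 bases before) and *Fgf21* (139 bases before) were on the opposite strand and all read TTGCATCA, and they are shown with 20 bases on each side because these genes hold a match and were not called. They lie at chr1:191183416-191183463 (minus strand), chr2:119351029-119351076 (plus strand) and chr7:45615602-45615649 (minus strand).
Atf3: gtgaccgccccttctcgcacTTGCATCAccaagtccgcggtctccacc
Chac1: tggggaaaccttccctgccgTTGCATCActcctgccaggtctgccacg
Fgf21: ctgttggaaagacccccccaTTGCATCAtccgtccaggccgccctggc
The match of *Trib3* was 15 bases after its start. Among the other ATF4 pathway genes the letters were found in 14 of 50 with a window, most often in those of the aminoacyl-tRNA synthetases, 5 of 8.

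Signals are log2 values scaled by the 75th percentile within an array, so a value of 0 is a probe as bright as that percentile, and levels of different probes cannot be ranked against each other. A probe was tested where it was clearly above background throughout WT or throughout KO, which held for 29069 probes. It was called where the fold change was over 1.5 and the adjusted p (limma, Benjamini-Hochberg) under 0.2. Where several probes read a gene, the brightest stands for it. By these criteria 1.01% of 14067 genes were called higher and 0.754% lower in KO liver, 1.76% in all. On the level of probes the shares were 0.939% higher and 0.726% lower, 1.67% in all. Whether the mice shared litters or cages is not given in the sources used here, so the p-values measure the spread between these mice. In whole liver, fewer cells of a type and less RNA per cell cannot be told apart.

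*Agpat3*, the deleted gene, gave log2 signals of 5.65, 5.66, 5.80 and 5.88 across WT livers and -0.48, 0.02, -0.58 and -0.47 across KO livers. The log2 fold change was -6.12 (SE 0.14, limma adjusted p = 4.46e-07), and the dimmer probe gave -5.69. The genotypes in the labels were thus borne out in all 8 mice. Hepatocyte markers identified the tissue, with all 8 of their genes well above background on every array and 0 called by limma (0 at an unadjusted p under 0.05). *Alb* (albumin), the brightest of their probes, had a log2 fold change of -0.01 (SE 0.07).

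Of the 10 genes, chosen with the difference already known, 2 were called lower (*Asns* and *Ddit3*), beside 0.754% of all genes. Called higher were 0, beside 1.01% of all genes, and 8 were not called. In 2 genes every KO value lay below every WT value, against 5.89% of all genes, in 1 gene (*Atf5*) every KO value lay above, against 3.84% (9.72% either way), and in 7 genes the groups overlapped. The means were lower in KO liver for 5 genes and higher for 5, with a median log2 fold change of -0.06, beside -0.03 over all genes. The brightest probe of each of the 10 genes was well above background on all 8 arrays, and of the 4 second probes those of *Asns* and *Psat1* were too dim to be tested.

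**Figure D1:**
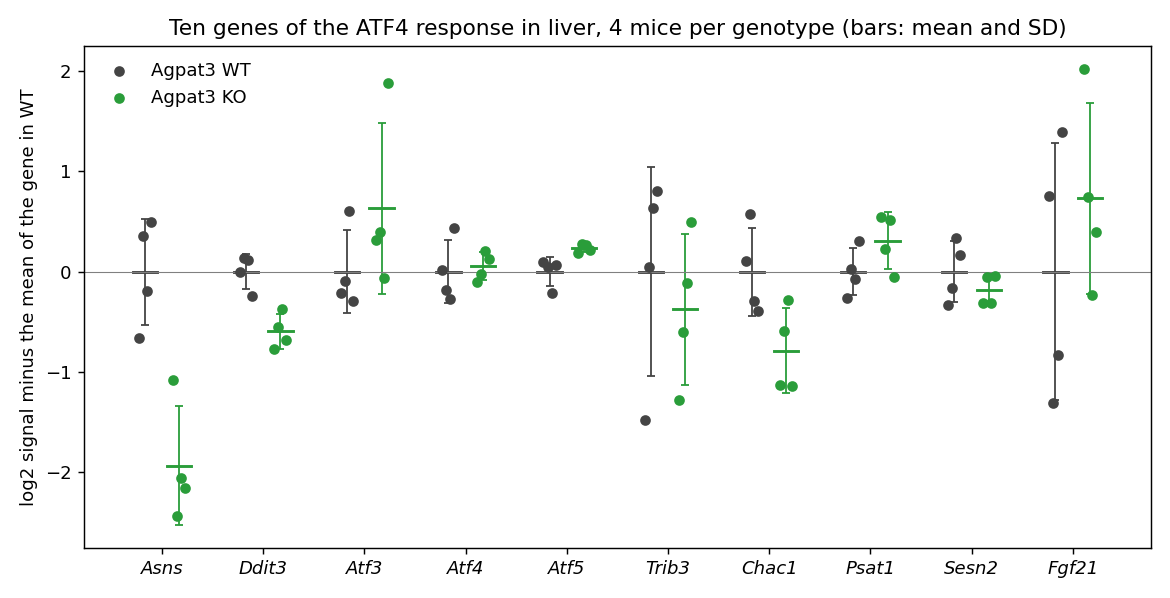
Log2 signal of each of the 10 genes in each mouse (brightest probe), minus the mean of the gene in WT liver, for 4 WT mice (gray) and 4 KO mice (green), with bars for the mean and SD. *Asns* and *Ddit3* show KO mice below all WT mice, *Atf5* shows them above, and in the other 7 genes the groups overlap.

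*Asns* encodes asparagine synthetase, which makes asparagine from aspartate and glutamine. Its brighter probe read 0.06, 1.08, 0.52 and 1.21 across WT livers and -0.36, -1.72, -1.34 and -1.44 across KO livers. The highest KO mouse lay below the lowest WT mouse, and the nearest pair were WT mouse 1 and KO mouse 1. The mean went from 0.72 ± 0.53 to -1.22 ± 0.59 (SD, n = 4 each), which is a log2 fold change of -1.94 (SE 0.34) or 3.83-fold lower in KO liver. The log2 fold change lay between -2.22 and -1.77 when each mouse was left out in turn, and the gene was called each time.

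The dimmer *Asns* probe read -4.61, -3.25, -3.26 and -2.73 across WT livers and -4.50, -5.57, -4.69 and -6.27 across KO livers. It was well above background in 3 of the WT mice and in 0 of the KO mice, so its fold change cannot be measured. With KO values raised to the lowest signal well above background of their array, it was 1.6-fold lower in KO liver. This is not a strict bound, since WT mouse 1, itself not well above background, entered at its own value. WT mouse 1 was the lowest WT mouse on both probes and KO mouse 1 the highest KO mouse on both, and on the dimmer probe these mice overlapped. This probe was not tested.

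*Ddit3* encodes CHOP, a transcription factor of the C/EBP family that takes part in cell death under lasting stress. Its signals were -0.11, 0.03, 0.01 and -0.35 across WT livers and -0.88, -0.66, -0.48 and -0.79 across KO livers. The groups did not overlap, with WT mouse 4 and KO mouse 3 the nearest. The mean went from -0.11 ± 0.17 to -0.70 ± 0.18 (SD, n = 4 each), which is a log2 fold change of -0.60 (SE 0.12). At 1.51-fold the difference was just past the fold change of 1.5, and the call was lost without WT mouse 2, WT mouse 3, KO mouse 1 or KO mouse 4, where the log2 fold change lay between -0.68 and -0.54 over all mice left out in turn. It was lost too with normexp background correction (-0.49) and with no filter on dim probes.

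**Figure D2:**
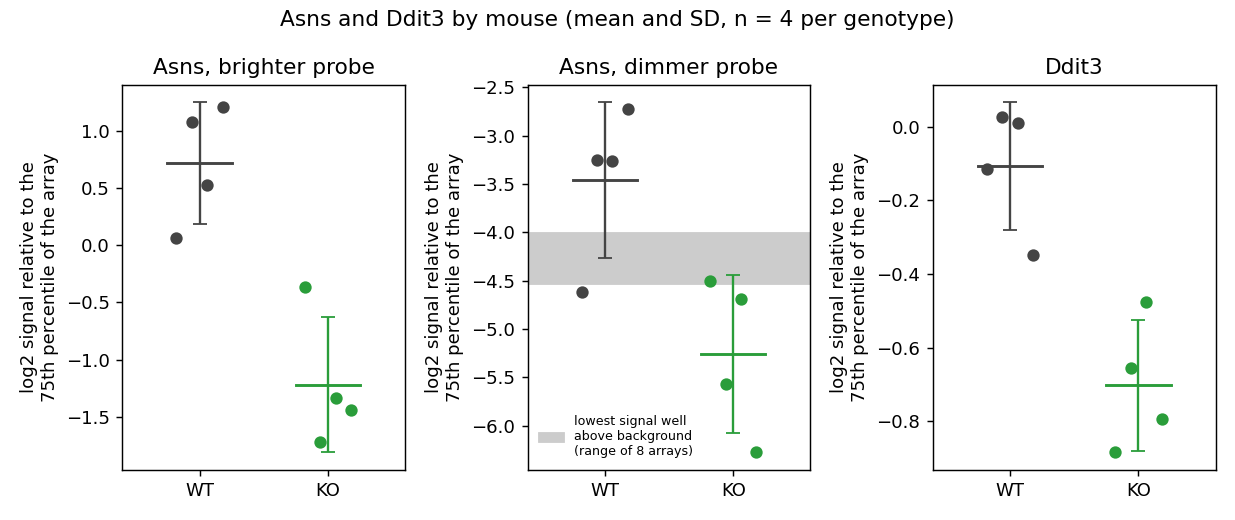
Log2 signal scaled by the 75th percentile within an array, for both *Asns* probes and for *Ddit3*, 1 point per mouse, with the mean and SD of 4 mice per genotype. The gray band gives the lowest signal called well above background, from -4.54 to -4.0 over the 8 arrays, and on the dimmer *Asns* probe 3 KO mice and WT mouse 1 are below it.

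The *Atf4* mRNA itself was close in the genotypes. It read 6.35, 6.15, 6.05 and 6.76 across WT livers and 6.22, 6.30, 6.53 and 6.46 across KO livers, so that the KO values lay within the WT range. Its log2 fold change was 0.05 (SE 0.16), and 0.12 (SE 0.12) on its second probe, and it was -0.04 without WT mouse 3. *Atf5*, a close relative of ATF4 that is also translated under stress, read 7.69, 7.64, 7.39 and 7.67 across WT livers and 7.79, 7.87, 7.86 and 7.81 across KO livers.

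All 4 KO mice were above all 4 WT mice for *Atf5*, by a log2 fold change of 0.24 (SE 0.08), and the same held on its second probe, at 0.34 (SE 0.08). These are 1.18-fold and 1.27-fold, under the fold change of 1.5, and *Atf5* was not called. *Atf3*, an immediate-early factor that stress and ATF4 both induce, read -1.93, -1.81, -1.11 and -2.0 across WT livers and -1.39, -1.32, -1.78 and 0.17 across KO livers. KO mouse 4 stood above the other 7, and the log2 fold change of 0.63 (SE 0.41) was 0.21 without it.

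*Trib3* encodes a pseudokinase that feeds back on ATF4. It read 1.48, 3.01, 3.59 and 3.77 across WT livers and 1.68, 2.36, 2.85 and 3.46 across KO livers, so WT mouse 1 and KO mouse 1 were the lowest of their genotypes. The log2 fold change was -0.38 (SE 0.55), smaller than the range within either genotype, and it was -0.87 without WT mouse 1 and -0.07 without KO mouse 1. *Sesn2*, which encodes the leucine-binding inhibitor of mTORC1 sestrin 2, read 0.57, 0.74, 1.24 and 1.07 against 0.59, 0.85, 0.59 and 0.86, a log2 fold change of -0.18 (SE 0.15) with overlapping groups. It was -0.07 without WT mouse 3 and -0.29 without WT mouse 1.

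*Chac1* encodes an enzyme that breaks down glutathione. Its signals were 1.74, 2.21, 1.34 and 1.24 across WT livers and 0.50, 1.04, 1.35 and 0.49 across KO livers. KO mouse 3 lay above 2 of the WT mice, and the other 3 KO mice lay below all of them. The log2 fold change was -0.79 (SE 0.27), or 1.73-fold lower, and the gene was not called. *Psat1*, an enzyme of serine synthesis, read -3.65, -3.35, -3.45 and -3.08 across WT livers and -2.83, -3.16, -2.87 and -3.44 across KO livers.

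The log2 fold change of *Psat1* was 0.31 (SE 0.17), opposite in sign to that of *Asns*, with overlapping groups, and it was 0.12 with normexp. Its second probe was well above background in 1 WT mouse and in 0 KO mice and was not tested. The mean of that probe went the other way, from -5.07 in WT to -6.09 in KO livers, with overlapping groups. *Fgf21*, a hormone that the liver secretes in fasting and amino acid shortage, read -2.22, -4.29, -3.81 and -1.58 across WT livers and -0.95, -2.23, -3.21 and -2.58 across KO livers. The WT mice alone spanned 2.71 on the log2 scale, or 6.53-fold, which is more than the log2 fold change of 0.73 (SE 0.68). That change was 0.29 without WT mouse 2, 1.20 without WT mouse 4 and 0.31 with normexp. WT mouse 2, the low end of the span at -4.29, was close to the lowest signal well above background on its array, -4.54. The width of the span thus rests in part on dim signals.

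Other genes of the pathway were read from lists written by hand. Of 67 genes 66 had a probe, 60 were tested, and limma called 0 in either direction, with 6 at an unadjusted p under 0.05 (10% of those tested, beside 14.0% of all genes). The tested genes split evenly, 30 with a higher and 30 with a lower mean in KO liver, and their log2 fold changes lay between -0.58 and 1.00. The 6 genes were *Eif2ak3*, *Got1*, *Slc38a1* and *Herpud1*, with lower means, and *Eif2ak4* and *Xpot*, with higher means, *Herpud1* and *Xpot* being named after their values were seen.

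The list of eIF2α kinases, phosphatase subunits, exchange factor subunits and partner factors had 18 genes, all tested and 0 called. *Eif2ak3*, the kinase PERK, read 1.22, 1.13, 1.42 and 0.66 across WT livers and 0.61, 0.25, 0.70 and 0.56 across KO livers. WT mouse 4 lay among the KO mice while the other 3 WT mice lay above them. Its log2 fold change was -0.58 (SE 0.17, limma adjusted p = 0.203), and it was -0.73 and called without WT mouse 4 (limma adjusted p = 0.08768, the lowest of 17 alternatives, which reached 0.445).

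For *Eif2ak4*, the kinase GCN2, the KO mice all exceeded the WT mice, but by a log2 fold change of 0.22 (SE 0.08, limma adjusted p = 0.272). *Ppp1r15a* (GADD34), which brings a phosphatase to eIF2α, had a log2 fold change of -0.39 (SE 0.20, limma adjusted p = 0.458), which was -0.21 without WT mouse 4. Both genes stayed under the fold change of 1.5.

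In serine, one-carbon and amino acid synthesis 8 of 12 genes were tested and 0 called. *Phgdh*, *Mthfd1l* and *Aldh1l2* were too dim to be tested and *Pycr1* had no named probe. *Got1*, the cytosolic aspartate aminotransferase, had a log2 fold change of -0.50 (SE 0.18, limma adjusted p = 0.276), and its second probe gave -0.47. *Mthfd2*, a mitochondrial folate enzyme, had 0.36 (SE 0.26, limma adjusted p = 0.610), which was 0.13 without KO mouse 3 and 0.56 without KO mouse 2.

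Among 10 amino acid transporters 8 were tested and 0 called, and *Slc7a3* and *Slc7a11* did not rise clearly above background anywhere. *Slc38a1*, a glutamine carrier, had a log2 fold change of -0.36 (SE 0.15, limma adjusted p = 0.351), or -0.21 as the mean of its probes. *Slc1a5* had -0.24 (SE 0.26, limma adjusted p = 0.741), which was -0.43 without WT mouse 1 and -0.11 without KO mouse 2 or with normexp. All 13 aminoacyl-tRNA synthetases were tested, 0 were called and 0 were at an unadjusted p under 0.05. They had the narrowest range of the 5 lists, from *Sars* at -0.15 to *Mars1* at 0.13 (0.21 without WT mouse 4).

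In the list of stress effectors 13 of 14 genes were tested and 0 called, and *Stc2* did not rise clearly above background anywhere. *Vldlr*, a lipoprotein receptor, had the largest log2 fold change of the 60 genes, 1.00 (SE 0.52, limma adjusted p = 0.456), with KO mouse 3 the highest at 0.36 and a value of 0.55 without it and 0.65 with normexp. *Gdf15*, a stress hormone, had -0.58 (SE 0.39, limma adjusted p = 0.575), which was -0.30 without WT mouse 3.

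**Figure D3:**
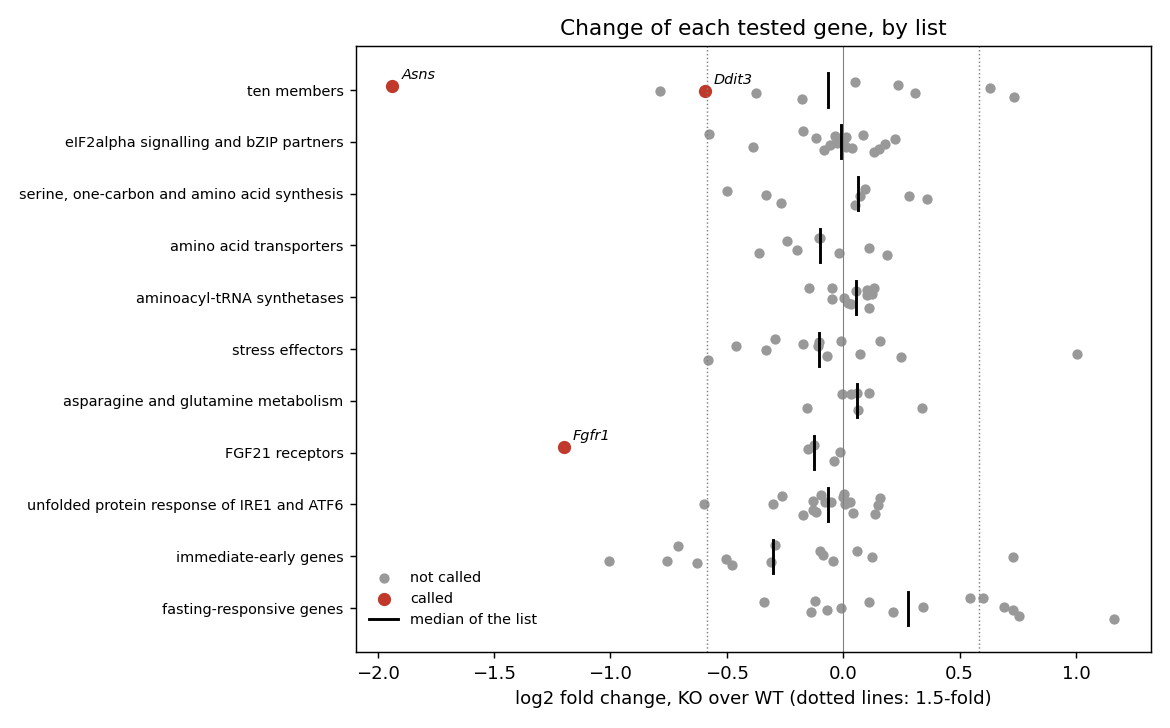
Log2 fold change (KO over WT) of each tested gene, 1 point per gene, for the 10 members, the 5 ATF4 pathway lists and the 5 comparison lists, with called genes in red, the median of each list as a black line and dotted lines at 1.5-fold. The called genes are *Asns*, *Ddit3* and *Fgfr1*, all lower in KO liver.

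Genes next to the pathway were compared in 5 further lists, with 58 genes, all tested, of which 0 were called higher and 1 lower. The 7 genes of asparagine and glutamine metabolism held 0 calls, with 1 at an unadjusted p under 0.05. *Asrgl1*, which hydrolyzes asparagine, had a log2 fold change of 0.34 (SE 0.11, limma adjusted p = 0.237) with every KO mouse above every WT mouse, and *Gls2*, the liver glutaminase, had -0.15 (SE 0.09, adjusted p = 0.534), or -0.08 without KO mouse 2.

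The called gene was *Fgfr1*, a receptor that binds FGF21 together with β-Klotho. It read 1.81, 1.83, 1.53 and 2.07 across WT livers and 0.97, 0.44, 0.48 and 0.54 across KO livers, without overlap. The log2 fold change was -1.20 (SE 0.15, limma adjusted p = 0.0210), or 2.30-fold lower, and it was called with each mouse left out in turn. Its other 3 probes were too dim to be tested. *Fgfr4*, the main FGF receptor of hepatocytes, had -0.15 (SE 0.12, adjusted p = 0.640), or -0.07 without KO mouse 1, and limma called 0 of the other 4 genes of this list.

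The branches of the unfolded protein response that run through IRE1 and ATF6 had 18 genes, with 0 called by limma and 0 at an unadjusted p under 0.05. *Dnajb9*, a chaperone induced through IRE1, had a log2 fold change of -0.60 (SE 0.31, limma adjusted p = 0.456) and was called without WT mouse 4, at -0.89 (adjusted p = 0.133, the lowest of 17 alternatives, which reached 0.7325). *Syvn1*, a ubiquitin ligase of the endoplasmic reticulum, had -0.30 (SE 0.39, limma adjusted p = 0.796), which was -0.64 without WT mouse 4 and -0.08 without KO mouse 4.

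Of 14 immediate-early genes 0 were called, with 1 at an unadjusted p under 0.05. *Fos* had a log2 fold change of -1.0 (SE 0.95, limma adjusted p = 0.707), which was -1.95 without KO mouse 4, -0.54 without KO mouse 1 and -0.66 with normexp, and *Dusp1* had -0.76 (SE 0.30, adjusted p = 0.332). KO mouse 4, the mouse with the high *Atf3*, was also the highest of the KO mice for *Fos* (1.74), *Fosb* (0.28), *Egr1* (3.01) and *Klf4* (1.48), which were named after their values were seen. The mean of this list, centred on the 8 mice, was 0.70 in that mouse and -0.57 to -0.31 in KO mice 1 to 3. In WT mice 1 to 4 it was -0.54, 0.40, 0.37 and 0.34, and WT mouse 4, with the lowest *Atf3* of the 8 mice, was among the high ones. The part of this list in the *Atf3* value was not tested.

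Of 14 fasting-responsive genes 0 were called, with 3 at an unadjusted p under 0.05, *Ppargc1a* (log2 fold change 0.60), *Pdk4* (0.73) and *Ehhadh* (0.34), named after their values were seen. Without WT mouse 4, *Ppargc1a* and *Pdk4* were called higher, and without KO mouse 4 *Ppargc1a* was. *Cyp4a14* had a log2 fold change of 1.17 (SE 0.60, limma adjusted p = 0.457) and *Igfbp1*, an insulin-suppressed secreted protein, had 0.76 (SE 0.59, adjusted p = 0.643). Without KO mouse 3 *Cyp4a14* had 0.72, and without WT mouse 1 *Igfbp1* had 0.32. The median of the list was 0.28, beside -0.03 over all genes. Its part in the *Fgf21* values was not tested. The feeding state of the mice at tissue collection is not given in the sources used here.

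**Figure D4:**
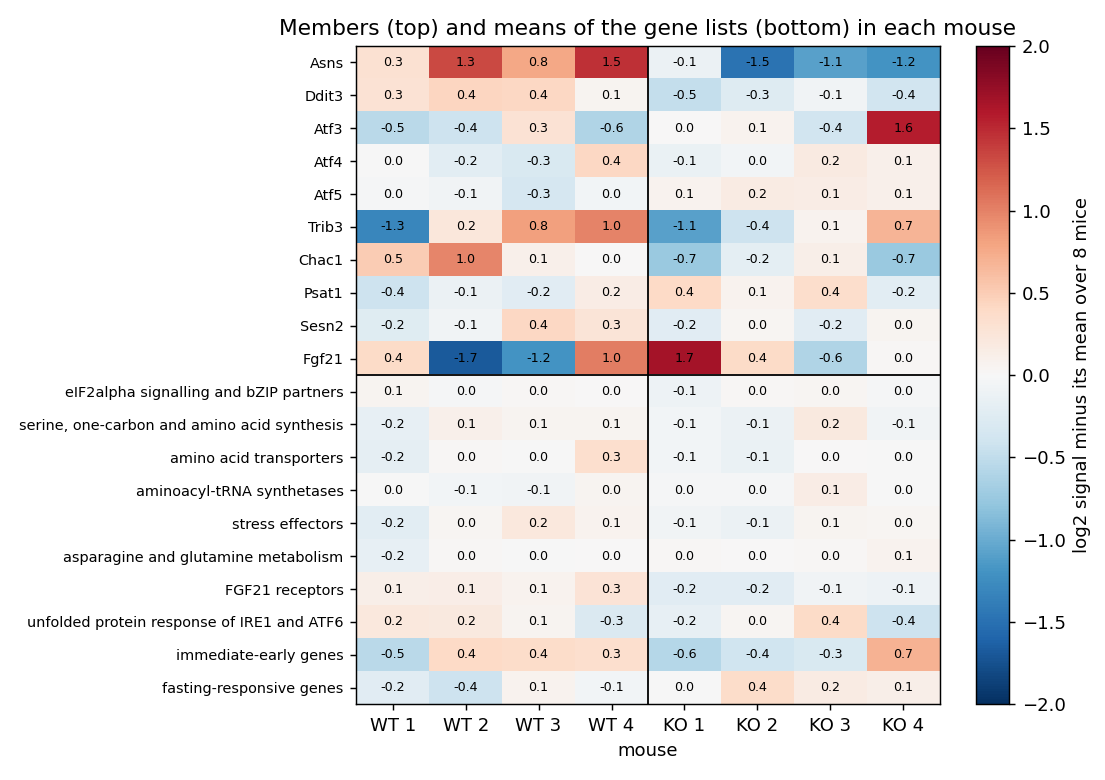
Log2 signal minus its mean over the 8 mice for each member (top) and, for each list, the mean of its tested genes (bottom), 1 column per mouse. *Asns* is above its mean in all 4 WT mice and below it in all 4 KO mice, while *Atf3* and the immediate-early genes are highest in KO mouse 4.

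Markers of other liver cells were read beside these values. *Marco*, a scavenger receptor of Kupffer cells, was called lower, with a log2 fold change of -1.22 (SE 0.25, limma adjusted p = 0.0983) and signals of 2.49, 2.87, 3.52 and 3.20 across WT livers and 1.33, 1.77, 2.25 and 1.84 across KO livers. The call was lost without KO mouse 2 (-1.21) or WT mouse 3 (-1.06) and with no filter on dim probes. It was the only one of 7 Kupffer cell genes called, and *Cd5l*, the brightest probe of the list, had -0.07 (SE 0.25, adjusted p = 0.929). The summed signal of the Kupffer cell list, in 75th percentiles of the array, was 89.1, 113, 120 and 146 across WT livers and 75.2, 116, 125 and 112 across KO livers. Its part in the *Asns* and *Ddit3* values was not tested.

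Limma called 0 genes of the stellate cell, endothelial cell, cholangiocyte and lymphocyte lists, with 3, 1, 1 and 0 genes at an unadjusted p under 0.05. The brightest probes of these lists were those of *Dcn* (log2 fold change -0.11, or -0.17 without WT mouse 3), *Clec4g* (0.02), *Spp1* (-0.14) and *Cd3e* (-0.14, or -0.36 as the mean of its probes). The genes at an unadjusted p under 0.05, named after their values were seen, were *Lrat* (0.50) and *Acta2* (0.19), with higher means in KO liver, and *Pdgfrb* (-0.45), with every KO mouse below every WT mouse, for stellate cells, *Lyve1* (-0.52) for endothelial cells and *Sox9* (-0.64) for cholangiocytes. The largest log2 fold change of the stellate cell list, -0.95 in *Col1a1*, had overlapping groups. WT mouse 2 was the highest for *Col1a1*, at 1.82, against -0.30 to 0.28 in the other WT mice. The centred mean of the stellate cell list was 0.54 in WT mouse 2 and between -0.14 and -0.02 in every other mouse. Pancreatic acinar cells make much *Asns*, and 7 of their 14 markers, among them *Prss2*, *Cpa1* and *Pnlip*, did not rise clearly above background anywhere. Another 6 of the 14 (*Amy2a5*, *Ctrb1*, *Cel*, *Cela2a*, *Clps* and *Cela1*) were well above background on all 8 arrays, and *Bhlha15* was in 3 WT mice and 1 KO mouse. The summed signal of the acinar list, in 75th percentiles of the array, was 44.7, 46.1, 47.4 and 56.9 in the WT livers and 32.2, 42.5, 29.4 and 44.3 in the KO livers, so that every KO liver was below every WT liver, the nearest pair at 44.3 and 44.7. Most of that sum was the probe of *Cela1*. Of the 6 tested genes 3 had a higher mean in KO liver (*Cel* at 0.45, *Cela2a* and *Clps*) and 3 a lower one, with a median log2 fold change of 0.03, and the centred mean of the list overlapped between the genotypes. *Cela1* had a log2 fold change of -0.54 (SE 0.20, limma adjusted p = 0.292), with the highest KO mouse at 5.01 and the lowest WT mouse at 5.02, and limma called 0 of the list. Its part in the *Asns* values was not tested.

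Genes that ran closest to *Asns* and to *Ddit3* over the 8 mice were found by the root mean square difference of centred log2 signals, among 13549 genes. A gene that follows *Asns* has to be lower in KO liver, so these are a description. For *Asns* they were *Enho* (0.50), which encodes the secreted peptide adropin, *Fgfr1* (0.51), *Meg3* (0.53), an imprinted noncoding RNA, *Htra3* (0.63) and *Cpne8* (0.64), and all 5 were called lower. For *Ddit3* they were *Rprl2* (0.12), *Arl6ip5* (0.12), *Etnppl* (0.12), *Ppp1r13l* (0.13) and *Kynu* (0.13), of which *Etnppl* was called lower. None was in the ATF4 pathway lists. *Fgfr1* and *Meg3* were called with any mouse left out, while the calls were lost for *Enho* without WT mouse 2 (-1.24) or WT mouse 3 (-1.27), for *Htra3* without WT mouse 3 (-0.97), for *Cpne8* without KO mouse 2 (-0.83), WT mouse 2 (-0.83) or WT mouse 3 (-0.89), and for *Etnppl* without KO mouse 1 (-0.51), KO mouse 2 (-0.56), WT mouse 1 (-0.60), WT mouse 2 (-0.56) or WT mouse 3 (-0.57). *Arl6ip5* was called without KO mouse 3 (-0.63). With no filter on dim probes the calls of *Enho*, *Htra3*, *Cpne8* and *Etnppl* were lost, and with normexp that of *Cpne8* (-0.50). As the mean of its probes *Htra3* had -0.66.

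**Figure D5:**
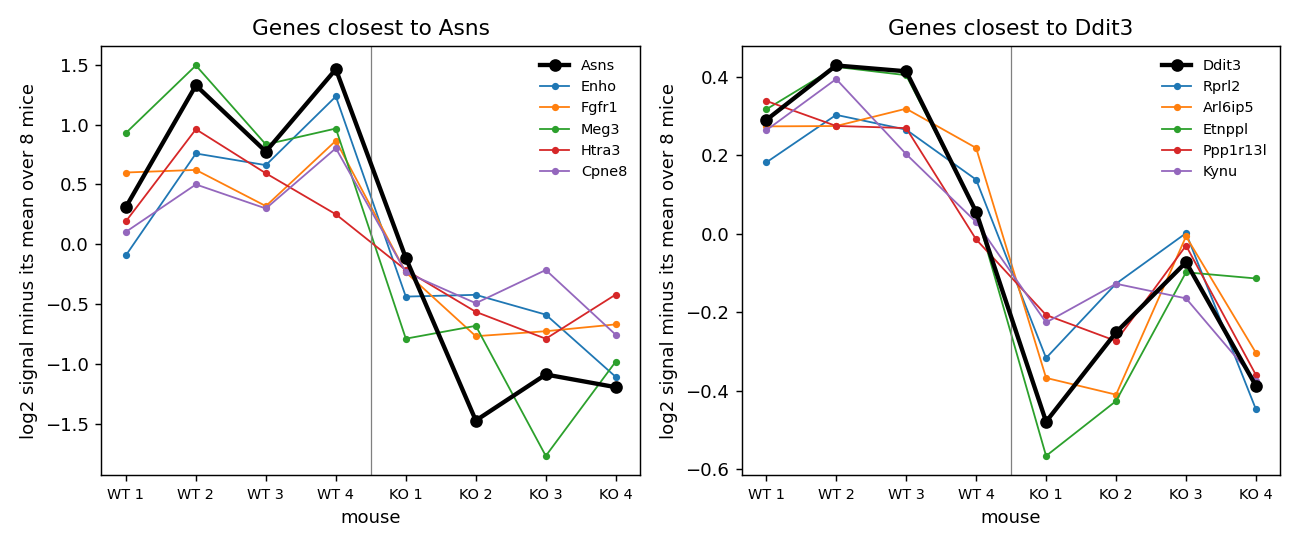
Log2 signal minus its mean over the 8 mice for *Asns* (left) and *Ddit3* (right, both in black) and the 5 genes closest to each, with lines joining the values of a gene over mice that have no order. In both panels the 4 KO mice lie below the 4 WT mice for the gene in black, and the axes differ in scale.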

How the data were processed

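Liver RNA of 4 WT and 4 KO mice, grouped by the genotype in the labels, was hybridized to one-color arrays. The authors deposited the processed signal of each spot as a background-corrected intensity from Feature Extraction 10.7.1.1, with probes designed on build mm9. They also deposited log2 values, which differ from the log2 intensity minus the 75th percentile of the array by a median of at most 0.00848. Arrays have no depth, and precision is limited by their number and by signal over background. The 75th percentile was 261 to 309 and the median local background 27 to 32. No spot was saturated, and 86 to 150 outlier spots per array were left out.

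Spots of a probe were averaged and 29069 probes were fitted with limma 3.58.1 (R 4.3.3). The call thresholds are those of the legend of the study's volcano plot, which does not say whether p is adjusted. Transcript accessions named 32994 of 56605 probes through RefSeq (GRCm38.p6). The test was checked on simulated data.

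The members, lists and tests were chosen with earlier results of these data known. Named were all members, *Agpat3*, *Eif2ak3* and *Eif2ak4*, in each list the called genes (up to 5) and, where fewer than 2 were called, the 2 largest changes, the brightest and the called markers, and the 5 genes closest to *Asns* and to *Ddit3*. Alternatives were normexp background correction (offset 50, on the median spot signal), quantile normalization, the deposited values, other filters, outlier spots kept, trend and robust options, a replicate block, each array left out, other thresholds and averaging all probes per gene. Replicate numbers were not taken as pairs, since same-numbered mice did not all deviate together. Same-numbered WT and KO arrays had the same place within their row of the slide.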

Additional observations from a re-analysis of the deposited data

Results flagged for a closer look

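In a group of 4 mice, 1 value can stand far from the other 3, and chance does this in about 1 in 20 groups. Of 106 groups examined, 4 held such a value. *Atf5* in WT mouse 3 was 7.386, against 7.643 to 7.692 in the other WT mice, and without that mouse its log2 fold change was 0.16. *Got1* in KO mouse 3 was 6.192, against 5.844 to 5.880. *Cyp4a14* in WT mouse 4 was -2.882, against -1.426 to -1.193. *Cd5l* in KO mouse 1 was 4.698, against 5.456 to 5.484.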

How the results depend on the processing

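*Asns* and *Fgfr1* were called lower in every refit and with each mouse left out, *Fgfr1* also at an adjusted p under 0.05. The probes called were 273 higher and 211 lower. With no filter on dim probes they were 122 and 131, with normexp 180 and 65, at an adjusted p under 0.05 82 and 35, at an unadjusted p under 0.2 534 and 451, and with no minimum fold change 557 and 645. With probes required to be above background 8 times of 8, 125 were lower. Members called lower were 1 (*Asns*) with no filter or normexp and 0 at an adjusted p under 0.05. An unadjusted p under 0.2 gave 1 member higher (*Atf3*) and 3 lower (*Asns*, *Ddit3* and *Chac1*), 1 pathway gene higher (*Vldlr*), and 4 comparison genes higher (*Ppargc1a*, *Pdk4*, *Cyp4a10* and *Cyp4a14*) and 3 lower (*Fgfr1*, *Dnajb9* and *Dusp1*). With each mouse left out in turn, probes called higher were 152 to 334 and lower 105 to 311, lowest without WT mouse 3 and highest without WT mouse 4. Members called lower were 1 to 2, losing *Ddit3*. Pathway genes lower were 0 to 1 (*Eif2ak3* without WT mouse 4). Comparison genes were 0 to 2 higher (*Ppargc1a* without KO mouse 4 or WT mouse 4, and *Pdk4* without WT mouse 4) and 1 to 2 lower (*Dnajb9*). The cause of these changes was not tested. A sign change occurred in *Atf4* (-0.04 to 0.20, below 0 without WT mouse 3), in *Alb*, at 0.0494 under quantile normalization and between -0.0536 and 0.0153 with 1 mouse left out (above 0 without KO mouse 3, KO mouse 4, WT mouse 1 or WT mouse 4), in *Cd5l* (-0.222 to 0.121, above 0 without KO mouse 1 or WT mouse 4), in *Clec4g* (-0.0186 to 0.0799, below 0 without KO mouse 2) and in *Spp1* (-0.324 to 0.0149, above 0 without WT mouse 2), none of them called. Mice with the same number correlated in their deviations at 0.33, -0.11, 0.10 and 0.32, and WT mouse 2 correlated best with KO mouse 3 (0.27). With the number as a replicate block, 1 comparison gene was called higher (*Cyp4a14*) in place of 0, and no other call among the members, the pathway genes and the comparison genes changed. The probes called with this block were 327 higher and 265 lower.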

Other observations

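In the unfolded protein response, *Hspa5*, the chaperone BiP, read 8.0, 8.11, 7.89 and 7.25 across WT livers and 7.45, 7.71, 8.32 and 7.30 across KO livers, a log2 fold change of -0.12 (SE 0.26, limma adjusted p = 0.887). That change was smaller than the range within either genotype, 0.85 in WT and 1.03 in KO livers. *Creld2*, an endoplasmic reticulum protein of this response, read 6.95, 7.21, 6.86 and 6.29 across WT livers and 6.17, 6.97, 7.71 and 5.76 across KO livers. The mean of the 18 genes, centred on the 8 mice, was highest in KO mouse 3 (0.38) and lowest in KO mouse 4 (-0.41). *Hspa5* and *Creld2* were chosen after their values were seen.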
